A study of Mus musculus with 72 samples.

Results

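A set of 10 astroglial and oligodendroglial genes was followed in chromatin-associated RNA (ChrRNA-seq) from mouse embryonic stem cells (mESCs) to late neuronal precursor cells (NPCs). The genes were chosen by name: Gfap, Slc1a3, Slc1a2, Aldh1l1, S100b and Aqp4 for the astroglial lineage, and Olig1, Olig2, Sox10 and Pdgfra for the oligodendroglial lineage. They are 10 of the 22556 genes in the count files, and all 10 were found by symbol. The question asked of them was how far late precursors had acquired glial transcripts, and whether clones differed in this.

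Both parental lines were female interspecific mESCs with one Dom (129S) and one Cast chromosome set, in which a TetOn promoter replaced the endogenous Xist promoter. In iXist-ChrX_Dom the promoter sat on the 129S X chromosome, and in iXist-ChrX_Cast on the Cast X chromosome. SmcHD1 KO clones had been made by CRISPR-Cas9: clone A3 from the Dom line, and clones D5 and G6 from the Cast line. The 5 groups (Dom WT, A3, Cast WT, D5 and G6) were each a single clonal line, so genotype and clone cannot be told apart within 1 clone. Uninduced ES samples were present for the KO clones only. All differentiating samples had been kept in doxycycline throughout, so that Xist was induced in WT and KO alike. They were collected on days 2, 3, 5 and 7 in N2B27 medium, which the labels call mESC to NPC, and as NPCs on days 15, 21 and 35 and, in the Dom line only, day 52. From day 7 the cells grew as aggregates in EGF and FGF, and from day 10 as passaged cultures on gelatin in the same factors. No BMP or cytokine of the LIF family, which are used to drive astrocyte differentiation, is described as added during the differentiation. Feeder fibroblasts, themselves mouse cells, had been removed by pre-plating.

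Neural precursors of the developing brain make neurons first and glia later. The switch to astroglia involves Notch activity, NFI factors, Sox9 and JAK-STAT signalling from cytokines of the LIF and CNTF family, which opens and activates genes such as Gfap and S100b. Oligodendrocyte precursors are specified by Olig2, acquire Sox10 and the PDGF receptor Pdgfra, and later express myelin genes. Not all of these genes are restricted to mature glia: Slc1a3 is also expressed in radial glia, and Pdgfra in primitive endoderm and mesenchymal cells.

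The 72 libraries gave 65 replicates after repeat sequencing libraries of one replicate were summed, with 9344054 to 31216487 counts per library. ES samples numbered 5, days 2 to 7 held 43 replicates and the late period (day 15 on) held 17, 1 per clone and day. Days were therefore pooled into periods (days 2 and 3, days 5 and 7, late), and the spread between days counts as error. The study describes the days up to 7 as replicate time course experiments, without saying how separate their cultures were, so p-values measure the spread between these samples, part of which may be technical. Smchd1 RNA itself did not separate the genotypes: at days 2 to 7 its level was 516 to 628 RPM (counts scaled to the library total over all genes) in Dom WT and 467 to 594 in A3, and 522 to 709 in Cast WT, 416 to 613 in D5 and 460 to 616 in G6. Counts over the gene therefore did not check the KO labels.

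The late libraries were also checked against the name NPC. Nes, an intermediate filament of neural precursors, ranged from 24.6 to 298 RPM (median 95.8), and Pax6 from 0.213 to 9.39 RPM. Sox1 and Sox2 were listed at 0 in all 65 replicates, ES samples included, and each overlaps a longer gene on the same strand in the files, so they give no usable value. The summed level of 10 mesenchymal and fibroblast genes (among them Col1a1, Col3a1 and Postn) was 1335 to 23487 RPM in late libraries (median 7331) against 286 to 1445 at days 2 to 7. The summed level of 12 neural precursor genes, to which Sox1 and Sox2 add 0, was 318 to 1490 RPM (median 1106) against 714 to 1185. That of 10 primitive endoderm genes (among them Gata4, Gata6, Lama1 and Col4a1) was 705 to 10185 RPM late (median 1402) against 211 to 6266 at days 2 to 7 (median 1326). Genes of the neural precursor list moved apart from days 5 and 7 to late NPCs. Over the 5 clones, Vim changed by 2.09 to 3.60 and Fabp7 by 1.18 to 4.62 on the log2 scale. Prom1 changed by -1.58 to -0.19 and Sox3 by -6.35 to -0.24. The neural precursor sum is therefore no measure of precursor identity by itself. The part of mesenchymal cells, primitive endoderm or remaining feeders in this sum and in the values of the 10 genes was not tested. In such bulk samples, fewer cells of a type and less RNA per cell cannot be told apart.

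RefSeq promoter sequences (GRCm38.p6, the mm10 build of the files) matched 7 of the 10 genes, and the 250 bases before the start of 4 of them are shown because these genes carry the main contrasts: Slc1a3, transcribed in every sample, against Gfap, S100b and Olig2, near 0 until late. They lie at chr15:8710808-8711057 (minus strand, Slc1a3), chr11:102897201-102897450 (minus strand, Gfap), chr10:76253586-76253835 (plus strand, S100b) and chr16:91225300-91225549 (plus strand, Olig2). Capitals mark matches, on either strand, to a STAT motif (TTCNNNGAA, in 7.02% of 32851 mouse promoter windows of this length), a GC box (GGGCGG, 32.7%) or a TATA motif (TATAAA, 12.4%). An E-box (CAGCTG, 13% of promoters) and the NFI palindrome (0.0365%) were searched too and matched none of the 4.
Slc1a3: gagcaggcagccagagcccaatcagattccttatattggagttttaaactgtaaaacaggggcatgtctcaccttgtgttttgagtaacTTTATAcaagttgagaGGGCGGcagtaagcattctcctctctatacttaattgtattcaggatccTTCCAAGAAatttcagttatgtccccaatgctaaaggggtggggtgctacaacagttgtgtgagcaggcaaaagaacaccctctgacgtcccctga
Gfap: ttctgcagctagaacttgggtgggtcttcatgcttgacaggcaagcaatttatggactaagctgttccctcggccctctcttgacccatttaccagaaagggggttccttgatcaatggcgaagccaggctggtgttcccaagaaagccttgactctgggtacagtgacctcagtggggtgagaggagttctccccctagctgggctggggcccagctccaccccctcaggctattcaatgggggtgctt
S100b: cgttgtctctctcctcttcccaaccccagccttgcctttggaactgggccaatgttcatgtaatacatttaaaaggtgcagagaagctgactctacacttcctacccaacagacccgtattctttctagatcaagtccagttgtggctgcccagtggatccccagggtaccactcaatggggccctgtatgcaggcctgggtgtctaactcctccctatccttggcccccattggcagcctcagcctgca
Olig2: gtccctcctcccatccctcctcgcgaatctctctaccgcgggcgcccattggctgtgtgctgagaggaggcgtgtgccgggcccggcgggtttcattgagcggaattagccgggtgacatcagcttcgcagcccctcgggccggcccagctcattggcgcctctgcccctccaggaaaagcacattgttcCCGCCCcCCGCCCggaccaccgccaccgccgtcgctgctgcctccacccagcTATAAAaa

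The Slc1a3 window held 1 match each to the STAT, GC box and TATA motifs. The Gfap and S100b windows matched no motif searched, and each held 2 CpG dinucleotides against a median of 6 over all promoters. The Olig2 window stood apart in base composition, with 22 CpGs and a GC content of 66.8%, above that of 85.8% of promoters, and it held 2 GC boxes and 1 TATA motif. A match is a description of letters in the window and does not mark a bound site.

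Per gene length (RPKM, RPM per kilobase of the length given in the files), Slc1a3 was the most abundant of the 10 genes, with a median of 1.68 RPKM over the 65 replicates and a highest value of 3.30. Pdgfra followed at a median of 0.640 RPKM and a highest value of 4.24. Aldh1l1 had a median of 0.158 and Slc1a2 of 0.0235 RPKM. These 4 genes had more than 3 counts in all 65 replicates. The other 6 had medians of at most 0.0138 RPKM, and their highest values came from late libraries: 1.01 for Gfap, 0.826 for Aqp4, 0.620 for S100b, 0.280 for Olig2, 0.133 for Sox10 and 0.0775 for Olig1. Ordered by mean level over the 17 groups of a clone and period with more than 1 replicate, no gene had a neighbouring pair of groups whose replicates did not overlap. This was not computed for all genes, so it is not shown to be a trait of the 10.

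**Figure D1:**
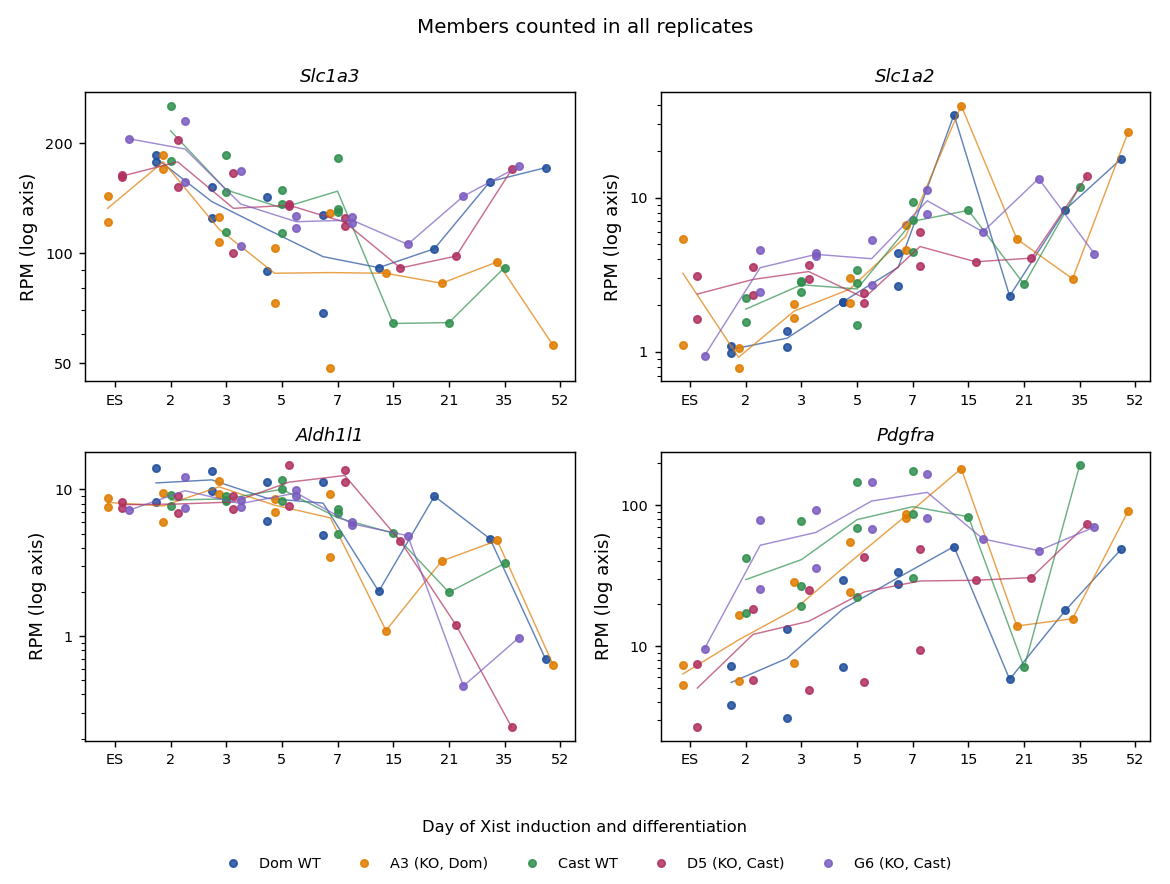
Levels of the 4 abundant genes in RPM (log axis) against day of differentiation, 1 point per replicate and 1 colour per clone, with lines through the mean of each day and ES samples at the left. Slc1a3 stayed between 48.4 and 253 RPM throughout, Slc1a2 reached 39.5 RPM late, Aldh1l1 dropped to 0.238 RPM, and Pdgfra spread from 2.64 to 195 RPM.

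Late NPCs were first compared with days 5 and 7 in each clone. Of 40 member tests (8 genes in each of 5 clones), 13 passed the edgeR quasi-likelihood test at a Benjamini-Hochberg adjusted p of 0.05. In Dom WT 1 of 8 genes passed, where 20% of all genes tested did. In A3 5 of 8 passed (background 34%), in Cast WT 3 of 8 (30%), in D5 2 of 8 (38.4%) and in G6 2 of 8 (37%). Slc1a2 was higher in Dom WT and A3, S100b in A3, Cast WT, D5 and G6, and Aqp4 in A3 and Cast WT. Gfap and Olig2 were higher in A3, Aldh1l1 was lower in D5 and G6, and Slc1a3 was lower in Cast WT. Whether these changes differed between clones was tested only between both WT lines. Gfap and Olig2 passed the filter on low counts in the Dom line only through the day 52 library of A3, so that their passing the test there is no separate support. S100b passed it in both lines only through late libraries, as it had at most 4 counts (0.227 RPM) in each replicate before day 15. Its passing the test is thus no separate support either. Olig1 was too low to be tested in either line, Sox10 was tested in the Cast line only, and Olig2 in the Dom line only.

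**Figure D2:**
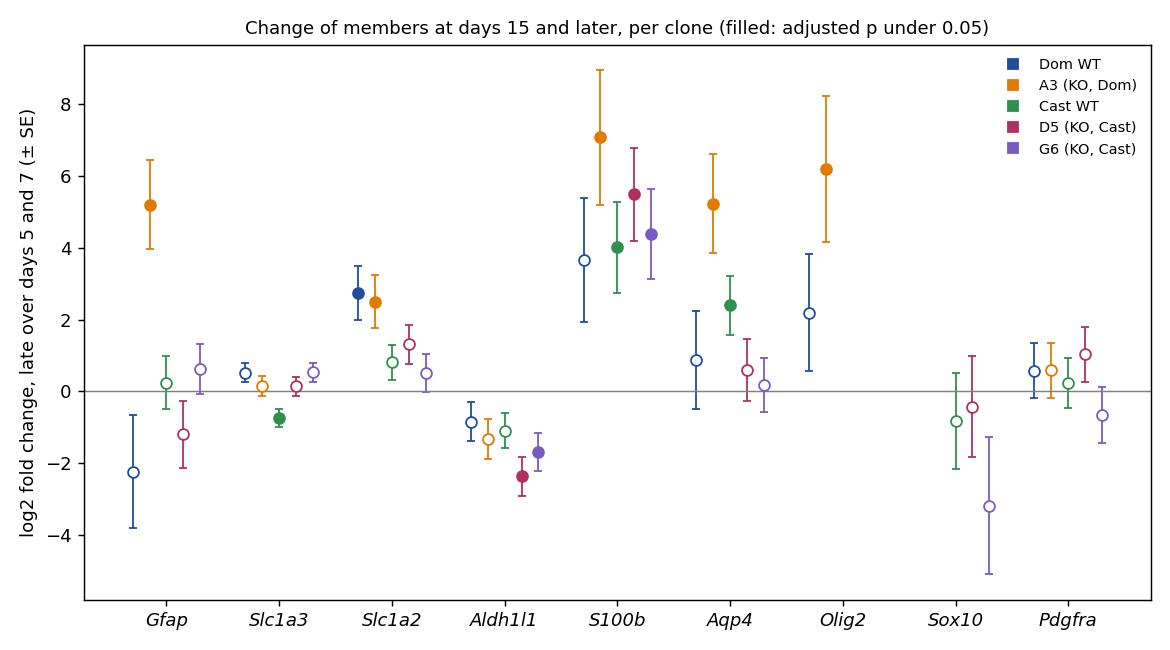
Change from days 5 and 7 to the late period as log2 fold change with its standard error (edgeR), by gene and clone, with filled circles for an adjusted p below 0.05. Gfap, Aqp4 and Olig2 stand above 5 in A3 with the other clones at or below 2.39, S100b lies above 0 in all 5 clones, and Aldh1l1 lies below 0 in all 5.

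Slc1a3 (GLAST, chr15:8634123-8710807, minus strand) encodes a glial glutamate transporter that radial glia already express. It was present from the start, at 122 to 206 RPM in the 5 ES samples and 48.4 to 253 (median 132) at days 2 to 7. Late values by day (15, 21, 35 and, in the Dom line, 52) were 91.2, 103, 157 and 171 RPM in Dom WT. They were 88.0, 82.7, 94.6 and 56.0 in A3, 64.2, 64.5 and 91.3 in Cast WT, 91.0, 98.1 and 169 in D5, and 106, 143 and 173 in G6. Late levels thus lay inside the range of days 2 to 7, and the last day was the highest late day in 4 of 5 clones, A3 being the exception.

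In Cast WT, days 5 and 7 ranged from 114 to 182 RPM (median 134), above all 3 late values, and Slc1a3 fell by 0.75 on the log2 scale (standard error (SE) 0.26, adjusted p = 0.0270). This call was lost without day 15 of Cast WT (log2 change -0.64, adjusted p = 0.0905), without its day 21 (-0.72, adjusted p = 0.107) and without its day 7 replicate 1 (-0.67, adjusted p = 0.0541). In the other clones the late change was 0.52 (SE 0.27) in Dom WT, 0.53 (SE 0.27) in G6 and 0.15 (SE 0.27) in A3 and in D5, and none passed. Without its day 15, the G6 change was 0.76 with an adjusted p of 0.0279. The difference between both WT lines in this change was -1.26 (SE 0.36, Cast minus Dom, adjusted p = 0.507).

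Slc1a2 (GLT-1, chr2:102658682-102790784, plus strand), the main glutamate transporter of mature astrocytes, was low before day 15, with 0.783 to 11.2 RPM at days 2 to 7 (median 2.79). Late levels were 2.3 to 39.5 RPM. Dom WT gave 34.4, 2.3, 8.36 and 17.7 RPM on days 15, 21, 35 and 52, and A3 gave 39.5, 5.38, 2.97 and 26.7. Both clones of the Dom line were thus high on days 15 and 52 and low between them. The Cast line gave 8.26, 2.74 and 11.8 RPM in Cast WT, 3.84, 4.05 and 13.8 in D5 and 6.00, 13.3 and 4.33 in G6. It was below the Dom line on day 15 but not on each later day, and day 35 was the highest late day in Cast WT and D5 but not in G6.

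Against days 5 and 7 (2.10 to 4.40 RPM in Dom WT and 2.07 to 6.61 in A3), Slc1a2 rose by 2.74 on the log2 scale in Dom WT (SE 0.76, adjusted p = 0.0157) and by 2.50 in A3 (SE 0.74, adjusted p = 0.0142). Without the day 15 library of the clone, the change was 1.96 in Dom WT (adjusted p = 0.0761) and 1.93 in A3 (adjusted p = 0.0525). The A3 call held in all 10 alternative settings, at adjusted p up to 0.0494. Among these was a fit without day 15 in both clones of the line, where the Dom WT call was lost (1.93, adjusted p = 0.0653). The Dom WT call was also lost without day 5 replicate 1 (2.58, adjusted p = 0.0529) or replicate 2 (2.60, adjusted p = 0.0519). In D5 the change was 1.31 (SE 0.54, adjusted p = 0.0517), which passed without D5 day 15 (1.62, adjusted p = 0.0259), day 21 (1.60, adjusted p = 0.0408) or day 7 replicate 2 (1.64, adjusted p = 0.0271). It also passed with DESeq2 (adjusted p = 0.0359), 1 fit per clone (0.0383), repeat libraries kept apart (0.0187) and no day 15 in the line (0.0251). In the other settings run it did not pass. Cast WT (0.81, adjusted p = 0.212) and G6 (0.52, adjusted p = 0.458) did not pass.

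Aldh1l1 (chr6:90550847-90599171, plus strand), a folate enzyme used as a pan-astrocyte marker was lower late. It was at 7.22 to 8.67 RPM in ES samples, 3.43 to 14.7 at days 2 to 7 (median 8.55) and 0.238 to 8.98 late (median 2.02). In D5 it went from 14.7, 7.69, 13.6 and 11.2 RPM on days 5 and 7 to 4.43, 1.19 and 0.238 on days 15, 21 and 35. In G6 it went from 9.86, 9.05, 5.67 and 5.97 to 4.83, 0.456 and 0.977 RPM. The late and earlier ranges did not overlap in either clone, for which no share over all genes was computed. Aldh1l1 fell by 2.36 in D5 (SE 0.54, adjusted p = 0.00102) and by 1.69 in G6 (SE 0.52, adjusted p = 0.0122). The D5 call held under each alternative and without each replicate, and that of G6 was lost without day 21 (-1.24, adjusted p = 0.0913) or day 35 (-1.39, adjusted p = 0.0940).

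The late values of Aldh1l1 were 5.03, 1.99 and 3.13 RPM in Cast WT, 1.09, 3.24, 4.48 and 0.639 in A3, and 2.02, 8.98, 4.60 and 0.692 in Dom WT. These gave changes of -1.10 (SE 0.48, adjusted p = 0.0843), -1.33 (SE 0.55, adjusted p = 0.0646) and -0.84 (adjusted p = 0.268). The day 21 library of Dom WT was its highest, and without it the change was -1.53 (adjusted p = 0.0429). That library also had the highest late sum of 10 pluripotency genes (203 RPM, late median 28.1). Cast WT passed without day 15 (-1.47, adjusted p = 0.0465), and A3 without day 35 (-1.82, adjusted p = 0.0209) or day 7 replicate 2 (-1.56, adjusted p = 0.0392). With DESeq2 Aldh1l1 passed in Cast WT (adjusted p = 0.0467) and A3 (adjusted p = 0.0360). It also passed with 1 fit per clone in Cast WT (adjusted p = 0.00752), and in A3 with library totals (adjusted p = 0.0347), 1 fit over both lines (adjusted p = 0.0375) and days 15 and 21 only (adjusted p = 0.0496). The 2 lowest values of the Dom line were both from day 52.

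Gfap (chr11:102887335-102897200, minus strand), the intermediate filament of astrocytes, gave at most 7 counts (0.642 RPM) in each of the 48 replicates before day 15. In late libraries it stayed at or below 0.173 RPM in 16 of 17, with 0 to 5 counts each. The exception was day 52 of A3, at 9.99 RPM (297 counts), against 0.0992, 0.143 and 0.113 RPM on days 15, 21 and 35 of the same clone. Dom WT on day 52 had 0.0364 RPM, a single count. Day 52 of A3 was 84.8-fold above the earlier late days of A3 (95% interval 45.5 to 179, counting error only). The test over the late period gave a change of 5.20 (SE 1.24, adjusted p = 0.00402) in A3 and rests on this 1 library: without it, Gfap was below the filter and was not tested.

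Aqp4 (on chromosome 18), the water channel of astrocyte endfeet, repeated this pattern. Before day 15 it had 0 to 18 counts (up to 0.686 RPM). Day 52 of A3 reached 11.8 RPM (351 counts), against 0.198, 0.178 and 0.0377 RPM on the earlier late days of A3 and 0.146 RPM on day 52 of Dom WT. The late change in A3 was 5.23 (SE 1.38, adjusted p = 0.00724) with this library and 0.48 (adjusted p = 0.752) without it.

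In Cast WT, Aqp4 was at 0.596, 0.0442 and 0.338 RPM (14, 1 and 8 counts) on days 15, 21 and 35 and at 0 to 0.151 RPM on days 5 and 7. The change was 2.39 (SE 0.83, adjusted p = 0.0271). It did not pass without day 15 (1.67, adjusted p = 0.194), day 35 (2.35, adjusted p = 0.0707), day 5 replicate 2 (2.15, adjusted p = 0.0558) or day 5 replicate 3 (2.14, adjusted p = 0.0506), nor in 1 fit over both lines (adjusted p = 0.104). Days 2 and 3 of Cast WT were at 0.139 to 0.370 RPM, within the range of the late values.

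S100b (chr10:76253835-76261319, plus strand) encodes a calcium-binding protein of astrocytes and of some oligodendrocyte precursors and Schwann cells. It had 0 counts in 36 of the 48 replicates before day 15 and at most 4 in the rest. In each of the 5 clones its highest late value was on the last day: 1.06 RPM in Dom WT and 4.64 in A3 on day 52, and 0.930 in Cast WT, 2.38 in D5 and 1.12 in G6 on day 35. The counts behind these were 29, 138, 22, 50 and 63, while the earlier late libraries held 0 to 13.

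The last day of S100b was above the earlier late days of the same clone by 8.30-fold in Dom WT (95% interval 4.03 to 18.4, counting error only). The ratio was 28.1 in A3 (16.2 to 52.8), 14.3 in Cast WT (4.30 to 74.6), 13.6 in D5 (6.38 to 33.1) and 11.6 in G6 (4.70 to 36.8). Each of the 5 intervals, WT and KO, lay above a ratio of 4.

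Over the late period as a whole, S100b rose in A3 (log2 change 7.07, SE 1.88, adjusted p = 0.0102), Cast WT (4.01, SE 1.27, adjusted p = 0.0176), D5 (5.49, SE 1.29, adjusted p = 0.00146) and G6 (4.38, SE 1.25, adjusted p = 0.00728). In Dom WT the change was 3.65 (SE 1.72, adjusted p = 0.139). Each call was lost without the last-day library: 3.79 (adjusted p = 0.102) in A3, 1.65 (adjusted p = 0.540) in Cast WT, 3.12 (adjusted p = 0.119) in D5 and 1.97 (adjusted p = 0.398) in G6. The Cast WT call was also lost with DESeq2 (4.19, adjusted p = 0.0693). As S100b passed the filter on low counts only through late libraries, these calls are no separate support for its rise.

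**Figure D3:**
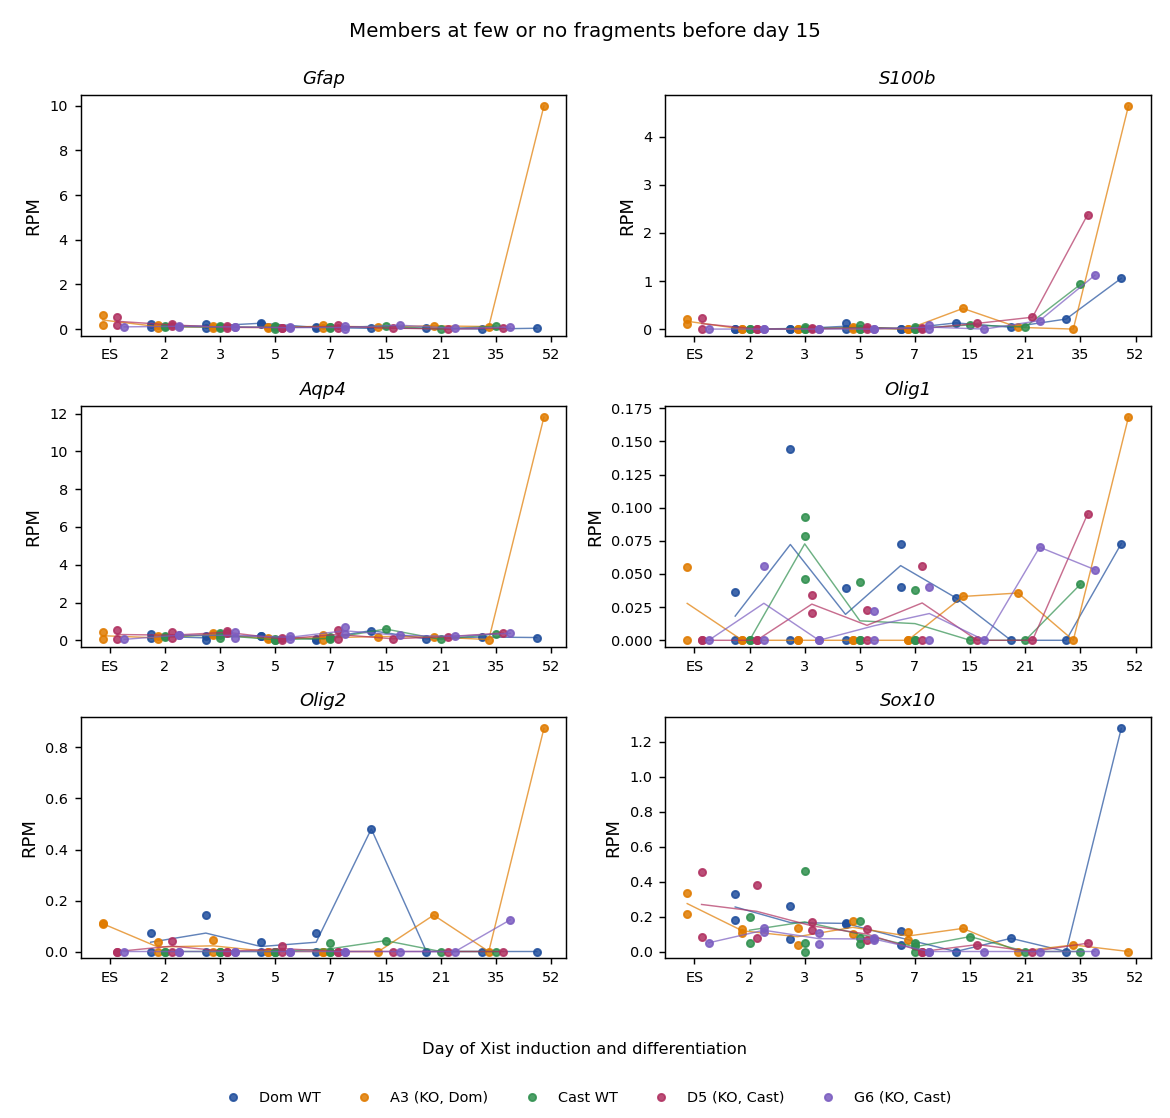
Levels of the 6 scarce genes in RPM against day of differentiation, 1 point per replicate and 1 colour per clone, with lines through the mean of each day. Gfap and Aqp4 are above 1 RPM in 1 library (A3, day 52), S100b is highest on the last day of each clone, and Olig1, Olig2 and Sox10 stay at or below 1.28 RPM.

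Olig2 and Olig1 (chr16:91225549-91228677 and chr16:91269768-91271939, both on the plus strand) are neighbouring genes for bHLH factors, of which Olig2 is needed for oligodendrocyte precursors and motor neurons. Olig2 had at most 4 counts before day 15. Late, it had 26 counts (0.875 RPM) on day 52 of A3, 15 (0.481 RPM) on day 15 of Dom WT, 7 (0.124 RPM) on day 35 of G6 and 4 (0.143 RPM) on day 21 of A3. The other 13 late libraries held 0 or 1 count, and D5 had none. Signal for Olig2 was therefore scattered over single libraries of 3 clones and was not high on the same day in Dom WT and A3.

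Olig2 was listed at 0 in all 4 replicates of days 5 and 7 of A3, so the late sum of A3 (30 counts) was at least 10.1-fold higher and day 52 alone at least 33.8-fold higher, against a floor of 3 counts over the group. The fitted change of 6.19 (SE 2.04, adjusted p = 0.0262) was lost without day 5 replicate 1 (6.18, adjusted p = 0.0553) or replicate 2 (6.14, adjusted p = 0.0575), and without day 52 Olig2 was below the filter. Olig1 never exceeded 5 counts (0.168 RPM, day 52 of A3). A difference in Olig1 was not detectable at this depth.

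Sox10 (chr15:79154912-79164490, minus strand), a factor of oligodendrocytes and of neural crest and Schwann cells, had 0 to 10 counts in each replicate before day 15. Its highest value was on day 52 of Dom WT, 1.28 RPM (35 counts), against 0, 2 and 0 counts on days 15, 21 and 35, a 55.1-fold ratio (95% interval 14.2 to 473, counting error only). On the same day A3 had 0 counts. Olig2, in turn, had 0 counts on day 52 of Dom WT. None of the 4 late libraries with more than 3 Olig2 counts held a Sox10 count.

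Pdgfra (chr5:75152290-75198204, plus strand), the PDGF receptor of oligodendrocyte precursors and of primitive endoderm and mesenchymal cells, was the most variable of the abundant genes. It was at 2.64 to 9.61 RPM in ES samples, 3.11 to 176 (median 28.7) at days 2 to 7 and 5.81 to 195 (median 48.7) late. Late values were 51.0, 5.81, 17.9 and 48.7 RPM in Dom WT, 183, 13.9, 15.7 and 91.4 in A3 and 83.1, 7.06 and 195 in Cast WT. In these 3 clones day 21 was the lowest late day. D5 (29.4, 30.7 and 73.7) and G6 (57.9, 47.7 and 70.2) varied less.

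Pdgfra changed from days 5 and 7 to the late period by 0.58 in Dom WT, 0.59 in A3, 0.24 in Cast WT, 1.04 in D5 and -0.66 in G6, none past the threshold (adjusted p from edgeR). Its mean in G6 was 116 RPM ± 48.8 (SD, n = 4) on days 5 and 7 and 58.6 ± 11.2 (n = 3) late, and in D5 26.7 ± 22.4 (n = 4) and 44.6 ± 25.2 (n = 3). In Cast WT the means were 88.7 ± 62.0 (n = 6) and 94.9 ± 94.4 (n = 3), a difference far inside the spread between days.

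Days 5 and 7 were next compared with days 2 and 3, when the cells leave the ES state. Of 40 member tests 2 passed (7 at an unadjusted p below 0.05, and 3 with DESeq2). They were Pdgfra in A3 (1 of 8 genes, background 23.0%) and Slc1a2 in Cast WT (1 of 8, 34.3%), and no member passed in Dom WT (11.6%), D5 (25.6%) or G6 (27.2%). Pdgfra went in A3 from 16.5, 5.62, 28.7 and 7.65 RPM to 54.7, 24.3, 81.0 and 87.3, a change of 2.27 (SE 0.80, adjusted p = 0.0444). The groups overlapped, and the call was lost in 6 of 8 cases when 1 replicate was left out, with p between 0.0569 and 0.121 in those cases. Slc1a2 in Cast WT rose by 1.13 (SE 0.44, adjusted p = 0.0475), lost in 8 of 11 such cases (p between 0.0535 and 0.155).

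Replicate numbers ordered the level of Pdgfra in these days. Replicate 2 was above replicate 1 on 4 of 4 days in Dom WT (ratios 1.21 to 4.26), Cast WT (1.38 to 3.11), D5 (3.20 to 7.72) and G6 (2.07 to 3.10), but on 1 of 4 days in A3. With the number as a block, Pdgfra passed in Dom WT (2.02, adjusted p = 0.0126), Cast WT (1.03, adjusted p = 1.09e-04), D5 (0.90, adjusted p = 0.00187) and G6 (1.21, adjusted p = 1.24e-04). Slc1a2 passed in Dom WT (1.35, adjusted p = 0.0266) and A3 (1.69, adjusted p = 0.00565), Aldh1l1 in D5 (0.63, adjusted p = 0.0269) and Slc1a3 in A3 (-0.73, adjusted p = 0.0291). The block fit, which used days 2 to 7 only, also called more of all genes. It called 4179 of 15443 genes in Dom WT and 6128 in A3, against 1986 and 3937 of 17113 without the block. In the Cast line it called 8340 of 15651 genes in Cast WT, 7210 in D5 and 7385 in G6, against 6127, 4571 and 4864 of 17869.

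Days 2 and 3 were also compared with ES in the KO clones. With edgeR, 0 of 24 member tests passed (0 at an unadjusted p below 0.05 and 0 with DESeq2), where 20.2% of all genes passed in A3, 24.5% in D5 and 7.72% in G6.

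SmcHD1 KO clones were compared with the WT of their line on the same days. At days 2 to 7, 1 of 16 member tests passed: 0 of 4 in A3 (background 0.832% of all genes), 1 of 4 in D5 (11.2%), 0 of 4 in G6 (2.37%) and 0 of 4 for the mean of D5 and G6 (1.93%). The gene was Pdgfra. Its values in D5 ran from 4.87 to 48.8 RPM and in Cast WT from 17.1 to 176, with a difference of -1.66 on the log2 scale (D5 minus WT, SE 0.46, adjusted p = 0.0179). The difference kept its call without each replicate in turn, and it ran from -1.97 to -1.27 over 7 alternative settings. Cast WT also has a replicate 3 on days 3, 5 and 7, which D5 and G6 lack. Pdgfra in that replicate was above replicate 1 on 3 of 3 days (ratios 4.00 to 6.57) and above replicate 2 (2.02 to 2.89). The part of this replicate in the difference was not tested apart from leaving out single replicates. The other clone of the same line pointed the other way, with Pdgfra at 25.5 to 167 RPM in G6 and a difference of 0.58 (adjusted p = 0.579), and A3 differed from Dom WT by 1.23 (SE 0.38, adjusted p = 0.144). The differences of D5 and G6 from Cast WT thus had opposite signs, and that of G6 did not pass without a block. With the replicate number as a block, the G6 difference was 1.19 (adjusted p = 2.00e-04), and Slc1a2 in G6 (0.86, adjusted p = 0.00756) and Slc1a3 in D5 (-0.33, adjusted p = 0.0373) passed too. Calls over all 15127 genes rose with it from 358 to 1265 in G6 and from 1695 to 2755 in D5. With the numbers of A3 crossed, an alternative chosen after seeing the data, Pdgfra passed in A3 (1.27, adjusted p = 0.0127), where calls over all 14782 genes rose from 123 to 533.

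In late NPCs, 0 of 19 member tests between KO and WT passed with edgeR (4 at an unadjusted p below 0.05, and 2 with DESeq2), against a background of 0% in A3 and D5 and 0.00687% in G6 and in the mean of D5 and G6. The largest differences with a small error were in Slc1a3, higher than Cast WT on each late day in D5 (91.0, 98.1 and 169 RPM) and in G6 (106, 143 and 173), against 64.2, 64.5 and 91.3 in Cast WT. The G6 difference was 1.08 (SE 0.17, adjusted p = 0.281), and the mean of both clones 0.87 (SE 0.15, adjusted p = 0.319). With DESeq2 these were 1.09 (adjusted p = 3.68e-05) and 0.87 (adjusted p = 2.05e-04), and in 1 fit over all days of the line 1.09 (adjusted p = 0.00205) and 0.88 (adjusted p = 0.00553). Without day 15 of G6 the edgeR difference was 1.20 (adjusted p = 0.0339). The A3 difference from Dom WT was -0.54 (adjusted p = 0.455). Aldh1l1 was at -1.29 (SE 0.68) in D5 and -1.10 (SE 0.65) in G6 against Cast WT, and their mean passed in the fit over all days of the line alone (-1.11, adjusted p = 0.0269). The high Gfap and Aqp4 of A3 on day 52 have 1 library behind them, and no other library of A3 from that day was analysed here.

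Cast WT and Dom WT were compared per period. With edgeR, 0 of 16 member tests passed (6 at an unadjusted p below 0.05, and 2 with DESeq2), where 3.95% of all genes passed at days 2 and 3, 8.55% at days 5 and 7, 0.661% late and 0% for the difference in late change. Both DESeq2 calls were Pdgfra, higher in Cast WT at days 2 and 3 (2.45, adjusted p = 0.0224) and at days 5 and 7 (2.00, adjusted p = 0.0471). The edgeR values were 2.47 (SE 0.81, adjusted p = 0.0860) and 1.98 (adjusted p = 0.102). The 63 genes within 5 Mb of Pdgfra were shifted between the lines. Of their reads assigned to an allele, 64.5 to 67.1% were Cast in Cast WT before day 15, against 47.5 to 49.0% in Dom WT. Whether this shift bears on the Pdgfra difference was not tested.

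Among the 17 late libraries, the slope on log2 day was fitted with clone as a term. S100b rose by 2.60 per log2 unit of day (SE 0.61, adjusted p = 0.0166) and Slc1a3 by 0.41 (SE 0.12, adjusted p = 0.0385), 2 of 6 genes tested (background 16%). S100b lost the call without day 52 of A3 (2.24, adjusted p = 0.108) and without day 52 altogether (2.10, adjusted p = 0.266). Slc1a3 lost it in 12 of 17 cases with 1 library left out, at adjusted p of 0.0512 to 0.0993 in those cases. Without day 15, Slc1a3 did not pass (0.40, adjusted p = 0.153) and Pdgfra did (2.45, adjusted p = 0.0370, against a slope of 0.22 with all days). The direction of the S100b and Slc1a3 slopes did not change in any of these cases.

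The other glial genes were read from 3 lists: 28 further astrocyte genes, 22 further genes of the oligodendrocyte lineage and 25 genes of gliogenic signalling. Of 26 astrocyte genes tested, 10 rose and 2 fell late in Dom WT, 9 and 4 in A3, 11 and 4 in Cast WT, 9 and 8 in D5, and 10 and 6 in G6. Of all genes tested, 12.6% rose and 7.36% fell in Dom WT, 18.8% and 15.3% in A3, 17.4% and 12.5% in Cast WT, 19.5% and 18.8% in D5, and 20% and 17% in G6. Their median log2 change was 0.26 to 0.50, against -0.05 to 0.02 for all genes tested. Cd44, Nfia, Nfib, Nfix, Sox9 and Tnc rose in all 5 clones, and Cbs fell in all 5. Tnc, a matrix protein of radial glia and of mesenchyme, rose by 5.59 (SE 0.49) in Dom WT and 5.93 (SE 0.60) in Cast WT. Nfix, a factor of the gliogenic switch, rose by 4.38 and 4.60, Sox9 by 2.79 and 2.85, Nfia by 2.10 and 1.89, and Fabp7, a lipid carrier of radial glia, by 4.62 and 4.38. The hyaluronan receptor Cd44, which mesenchymal cells also express, rose by 2.49 and 2.59.

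Late levels of single astrocyte genes were uneven. Gja1, the main astrocyte connexin, was at 21.0 to 102 RPM in all 17 late libraries and Apoe at 4.37 to 21.2, while Gjb6 was at 0 in 8 of 17 and Ntsr2 in 10 of 17. Of the 6 astroglial genes of the chosen set, 0 were called higher in all 5 clones. The share of all genes called the same way in all 5 clones was not computed. Counts over all 5 clones, for this set and for each list, therefore have no background. The mesenchymal list moved alongside: 8 to 10 of its 10 genes rose in each clone.

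In the oligodendrocyte lineage list, of 20 genes tested 1 rose and 0 fell in Dom WT, 4 and 3 in A3, 3 and 1 in Cast WT, 6 and 4 in D5 and 6 and 3 in G6, with medians from -0.62 to 0.31. No gene moved the same way in all 5 clones. Ptprz1, a phosphatase receptor of precursors and of radial glia, rose in Dom WT (2.55, SE 0.73) and Cast WT (1.65, SE 0.41). The late sum over the list was 52.7 to 252 RPM (median 83.1) against 74.7 to 214 at days 2 to 7 (median 110). The myelin gene Mag was at 0 in 14 of 17 late libraries and Mog in 10, and Gpr17, a marker of committed precursors, in 12.

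In the signalling list, 6 genes rose and 1 fell of 25 tested in Dom WT, 8 and 1 of 25 in A3, 8 and 1 of 24 in Cast WT, 12 and 2 of 24 in D5 and 11 and 3 of 24 in G6. Jag1, Jak1, Osmr and Stat3 rose in all 5 clones. Osmr, a receptor subunit for oncostatin M, rose by 3.00 (SE 0.57) in Dom WT and 4.43 (SE 0.50) in Cast WT. The Notch ligand Jag1 rose by 2.32 and 3.06, Stat3 by 1.16 and 1.26, and Jak1 by 0.80 and 0.62, while the Notch effector Rbpj fell by 0.70 and 0.66.

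**Figure D4:**
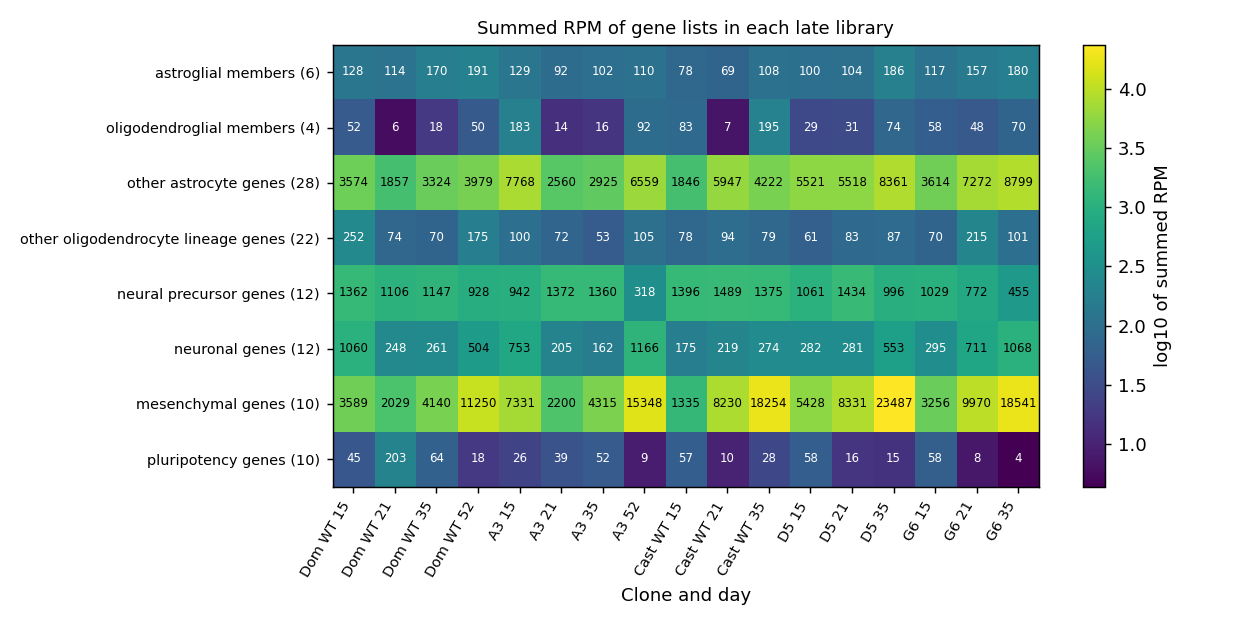
Summed RPM of 8 gene lists (rows, with the number of genes) in each of the 17 late libraries (columns, clone and day), coloured by log10 of the sum, with the sum written in each cell. The 28 other astrocyte genes sum to 1846 to 8799 RPM and the 22 other oligodendrocyte lineage genes to 52.7 to 252 RPM, and day 52 of A3 has the lowest neural precursor sum (318 RPM).

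Day 52 of A3 was also the late library with the highest level of several listed genes: Fgfr3 (25.9 RPM), Bcas1 (8.65), Atp1b2 (5.72), Mlc1 (4.88), Sox8 (2.89) and Bcan (2.86). They were picked after their values were seen, from lists of 28 astrocyte and 22 oligodendrocyte lineage genes. How many listed genes were highest in this library was not counted, so the picked genes do not show how glial it was. In no late library of A3 did the astrocyte list sum to more than 7768 RPM or the oligodendrocyte lineage list to more than 105 RPM. The highest late sums of these lists were 8799 RPM (G6) and 252 RPM (Dom WT), so this library was highest in neither. Mlc1 and Atp1b2 are membrane proteins of astrocytes, and Bcas1 belongs to the oligodendrocyte lineage, but Mbp was at 0.303 RPM. In the same library the summed neural precursor list was the lowest of all late libraries (318 RPM) and the neuronal list the highest (1166 RPM, late median 282), with a mesenchymal sum of 15348 RPM. The next highest neuronal sums were 1068 RPM (G6, day 35) and 1060 RPM (Dom WT, day 15), and the mesenchymal sum lay inside the late range. The part of these lists in the Gfap and Aqp4 values was not tested.

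Reads that could be assigned to a parental chromosome gave the share of the Cast allele. Gfap in late A3 had a Cast share of 64.0% (95% exact binomial interval 56.6 to 70.9), with 297 of its 307 late counts from day 52. The 285 genes within 5 Mb of it had 61.6 to 62.6% in late A3 and 52.8 to 60.5% in late Dom WT. Before day 15 these 285 genes had 61.3 to 65.1% in A3 and 49.9 to 61.4% in Dom WT, so the clones overlapped there. Late Aqp4 of A3 had 39.8% (34.1 to 45.7). Both alleles were thus transcribed in late A3. The 110 genes within 5 Mb of Olig2 were at 43.5% on day 35 and 39.9% on day 52 of A3. In the other late libraries they were at 46.2 to 50.2%. Whether this shift bears on the Olig2 counts was not tested. Summed over the replicates of a clone before day 15 or over its late libraries, Aldh1l1 had a Cast share of 24.8 to 32.1%, against 44.3 to 50.3% for the 124 genes around it. In the 5 ES samples alone it was 37.2 to 43.7%. Pdgfra was at 43 to 44.1% in the Dom line and 53.2 to 66.7% in the Cast line by the same sums, where its 63 neighbours were also shifted (61.0 to 71.5%, against 47.5 to 50.4% in the Dom line).

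Slc1a3 leaned to Cast in ES samples, with a Cast share of 67.5 and 68.7% in A3, 71.8 and 73.5% in D5 and 71.4% in G6. At days 2 to 7 it was 45.0 to 62.6% over the 43 replicates. The 62 genes around it were at 45.6 to 48.0% before day 15, ES samples included. In late G6 it was 52.7% on day 15, 35.0% (33.2 to 36.9) on day 21 and 33.2% (32.1 to 34.4) on day 35. The other late libraries of all clones lay between 42.7 and 57.3%, and the same 62 genes were at 47.7 to 48.1% in late G6. The shift in G6 was thus seen at Slc1a3 and not in the sum of its neighbours.

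The genes most like each abundant member were taken by Pearson correlation of log2(RPM + 0.5) over the 65 replicates, among 16980 genes. Replicates of a clone share their libraries' depth and day, and the values are a description. Aldh1l1 was closest to Chmp4c, Tnk1 and Map7 (each r = 0.94), Pdgfra to Pth1r (0.91), Scube2 (0.86) and Enpep (0.83), Slc1a2 to Nrxn3 (0.84), Ypel4 (0.81) and Zfhx4 (0.80), and Slc1a3 less closely to Snx31 and Helb (each 0.70) and Parp14 (0.69).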

How the data were processed

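ChrRNA-seq was analysed from the deposited tables of counts per gene. Per the file headers and the submitters' processing notes, the authors aligned reads to mm10 (Bowtie2 2.3.2, STAR 2.4.2a) and counted them by strand over whole gene bodies with featureCounts 1.5.2, together with counts split by parental genome. Counts over gene bodies include introns, so they follow nascent transcription. Of the 10 genes, 0 overlap another gene of the files.

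Libraries of one replicate were summed, and counts were scaled to the library total (RPM) and to gene length (RPKM). Tests used R 4.3.3, edgeR 4.0.16 (TMM factors, filterByExpr, quasi-likelihood) with limma 3.58.1 installed, and Benjamini-Hochberg adjustment over all genes tested. Periods within a clone were compared in 1 fit per line, and KO with WT per period with day as a term. DESeq2 1.42.0 was an alternative. The scripts were tested on simulated counts. Depth was 9344054 to 31216487 counts per library, and intervals and the floor of 3 counts cover counting error only. RPM values were not corrected for composition, where TMM factors ranged from 0.712 to 1.24.

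Replicate numbers were checked as pairs across days 2 to 7: the correlation of the difference between replicate 1 and replicate 2 on different days was 0.132 to 0.650 in Dom WT, 0.115 to 0.555 in Cast WT and 0.228 to 0.657 in D5, over 12654 genes. The numbers come from the sample titles, and the study describes these days as replicate time courses without tying a number to an experiment. In A3 and G6 the lowest correlation was 0.0843 and 0.0331.

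The 10 genes and all gene lists were chosen with earlier results of these data known. The genes named from the lists were at most 6 per list that passed in both WT lines, ranked by the smaller of the absolute changes of both lines, and genes called in all 5 clones or highest in day 52 of A3 were named after their values were seen. Alternatives were other scaling, no filter, DESeq2, other fits, other bounds of the late period, a replicate block and leaving out each replicate. Among them, the late period without day 52 and a crossed block were chosen after seeing the data.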

Additional observations from a re-analysis of the deposited data

Results flagged for a closer look

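Each of 88 groups of 4 to 6 replicates of a clone and period in which a gene had more than 3 counts was searched for a lone high or low replicate with Dixon's ratio. In 10 groups 1 replicate lay beyond the 95% critical value, and in each of them it was the highest. For normally distributed replicates about 4.4 of 88 would do so. Sparse counts are not so distributed, and a group with 1 replicate above 0 has a ratio of 1 whatever its value. The 4.4 is therefore no expectation for these groups, and the flags are a description. On day 52 of A3, Gfap (9.99 RPM), Aqp4 (11.8 RPM), S100b (4.64 RPM) and Olig2 (0.875 RPM) were far above the other late days. On day 52 of Dom WT the same held for Sox10 (1.28 RPM) and S100b (1.06 RPM), and on day 15 of Dom WT for Olig2 (0.481 RPM). The other 3 lay at 4 or 5 counts: Gfap on day 7 in A3 replicate 1 (0.187 RPM) and D5 replicate 2 (0.192 RPM), and S100b on day 7 in G6 replicate 1 (0.0802 RPM). No gene moved up in all replicates of one clone and down in all replicates of another between adjacent periods.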

How the results depend on the processing

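No member result that passed in the main run or in an alternative changed its sign between them. Signs of results that passed in neither were not compared. For the late period against days 5 and 7 (13 calls), days 15 and 21 only gave 6, of which 5 were among the 13 and Aldh1l1 in A3 was new (Gfap and Olig2 in A3 and S100b in 4 clones did not pass the filter on low counts there), leaving out day 52 gave 9, and leaving out 1 replicate gave 9 to 14. For days 5 and 7 against days 2 and 3 (2 calls), library totals gave 0, no filter 1, 1 fit per clone 0, 1 fit over both lines 1 and the replicate block 10, and leaving out 1 replicate gave 1 to 3. The block raised the calls over all genes as well, to 4179 to 8340 per clone against 1986 to 6127. For KO against WT at days 2 to 7 (1 call), DESeq2 gave 2, the replicate block 4 and leaving out 1 replicate 1 to 2. Replicate 1 minus replicate 2 was correlated between clones on the same day. Between Dom WT and A3 this was negative on days 2, 3, 5 and 7 (-0.445 to -0.737), so numbers went together crossed rather than as equals. Between Cast WT and D5 or G6 it was 0.686 and 0.794 on day 2, negative on days 3 and 5, and 0.149 and 0.129 on day 7. Between D5 and G6 it was 0.396 to 0.812. The main KO tests hold no term for such sharing. A crossed block, chosen after seeing the data, gave 2 member calls and 533 calls over all genes in A3 against 123. For late KO against WT (0 calls), DESeq2 gave 2, 1 fit over all days 3 and leaving out 1 replicate 0 to 1. For Cast WT against Dom WT (0 calls), DESeq2 gave 2. For the slope on day (2 calls), library totals gave 1, leaving out day 15 gave 2 with Pdgfra in place of Slc1a3, leaving out day 52 gave 0 and leaving out 1 library 1 to 2. Depth limits Gfap, Aqp4, S100b, Olig1, Olig2 and Sox10, which had 0 to 18 counts in each replicate before day 15.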
